A study of Bos taurus with 22 samples.

Results

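The jejunal mucosa of steers infused with casein was compared with that of control steers by RNA sequencing, in animals that received no glucagon-like peptide 2 (GLP-2), a gut hormone that promotes intestinal growth. All 11 animals labelled Casein (n = 6) or Control (n = 5) were included, of 22 steers in the data. They were Holstein steers of 10 to 12 months of age that carried an abomasal infusion catheter, were fed a diet based on alfalfa hay cubes, and were assigned to treatment within blocks of body weight. Every animal was infused into the abomasum with raw corn starch for 7 d, at 3.94 g daily per kg of body weight. Casein steers also received sodium caseinate (1.30 g daily per kg) in place of water. Both groups were injected every morning and evening with the bovine serum albumin (BSA) vehicle. The other 11 steers in the data were injected with GLP-2, with or without casein, and entered the fitted model and a later comparison. The control group had 5 steers because the RNA of a control animal was too degraded to be sequenced, so block 6 held a casein steer only. Mucosa was scraped with a glass slide from the middle of the jejunum, so each value is a mixture of epithelium, lamina propria, lymphoid tissue and some muscle, and fewer cells of a type cannot be told apart from less RNA per cell.

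Casein is a milk protein that reaches the jejunum as peptides and free amino acids. Peptides are taken up by the proton-coupled transporter PEPT1 (SLC15A1) and amino acids by a set of carriers on the apical and basolateral membranes of the enterocyte. Starch that leaves the abomasum is cut by pancreatic amylase, and the products are hydrolysed on the brush border by maltase-glucoamylase (MGAM) and sucrase-isomaltase (SI). Glucose then enters with sodium through SGLT1 (SLC5A1) and leaves through GLUT2 (SLC2A2). The study asked whether casein and GLP-2 change the transcripts behind these functions.

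Counts on genes ranged from 9003688 to 23666186 per steer with casein and from 11490049 to 20655744 in control. The treatments did not form separate clusters in a principal component analysis of the 500 most variable genes, where the first component (48.6% of the variance) ran from -40.2 to 36.1 with casein and from -55.2 to 52.2 in control. Genes of lymphoid tissue such as CCL19 and of stroma such as THY1 stood at one end of it and villus enterocyte genes such as SLC13A1 and APOC2 at the other. Casein replicate 3 stood apart from the other casein steers in lymphoid follicle RNA, with a mean log2 CPM of 6.45 over 22 B cell follicle genes against 1.31 to 3.09 in the other 5, while control steers ran from 0.93 to 6.50. CPM here are counts scaled to a common library size with TMM factors. Villus enterocyte genes, which mark the labelled tissue, were high in every steer, with a mean log2 CPM over 20 genes from 7.59 to 10.1 with casein and from 6.98 to 10.7 in control.

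No gene differed between casein and control after adjustment in the main test. In edgeR's quasi-likelihood test 0 of 15086 genes (0%) had an adjusted p of at most 0.05, 854 (5.66%) reached 0.05 before adjustment, and DESeq2's Wald test called 10 of 15075 genes (0.0663%). The typical gene moved little, since the middle 50% of log2 fold changes lay between -0.22 and 0.25. Precision was limited, with a median standard error of 0.33 and a median half-width of the 95% interval of 0.68 on the log2 scale. A change of 1 on the log2 scale exceeded that half-width for 69.6% of genes.

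Of the 854 genes, 437 (2.9% of the genes tested) had a higher level and 417 (2.76%) a lower one in casein steers. A separate fit with counts corrected for gene length was chosen after seeing the data. At an unadjusted p of at most 0.05 it gave 331 higher and 545 lower genes. In the main fit, length and direction moved together. Of the 854 genes, those in the longest quintile, from 3925 bases, were 134 higher and 40 lower (77.0% higher). The other quintiles had 36.7% to 50.0% higher. The median log2 fold change was 0.09 in the longest quintile and between -0.03 and 0.02 elsewhere. For casein + GLP-2 against GLP-2, in other animals, the medians from shortest to longest quintile were -0.12, -0.046, -0.0085, 0.016 and 0.062. RNA integrity varied among the samples of the study, which reports it as a summary rather than per steer. Neither the part of RNA quality nor any other cause was tested.

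**Figure D1:**
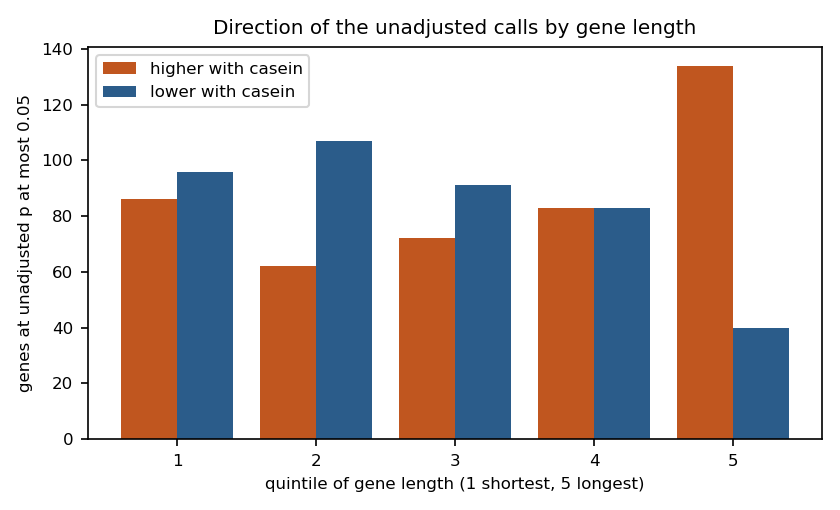
Number of genes with an unadjusted p of at most 0.05 (y axis) by quintile of gene length (x axis, from the shortest to the longest), as bars starting at 0 for genes higher and lower with casein. In the longest quintile 134 genes were higher and 40 lower, and in the second quintile 62 were higher and 107 lower.

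The 5 genes that the DESeq2 test called lower with casein included a pair of genes of lymphocytes. LIMD2, a LIM domain protein abundant in lymphocytes (chromosome 19, 47975191 to 47977056, ARS-UCD1.2), had 232, 159, 376, 166 and 269 CPM in the control steers, against a lowest of 100.4, a median of 126 and a highest of 134 CPM in the casein steers. Every casein steer was thus below every control steer, and the casein values were much less spread (122 ± 13.8 CPM, SD, n = 6) than the control values (240.4 ± 88.9, n = 5). Its log2 fold change was -0.98 ± 0.22 (SE; 95% interval -1.43 to -0.54), with an adjusted p of 0.554 in edgeR and 0.0216 in DESeq2. With the B cell follicle score as a covariate the log2 fold change of LIMD2 was -0.69 (edgeR adjusted p = 0.335).

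PTPRCAP, the phosphatase-associated protein that binds CD45 in lymphocytes (chromosome 29, 45327237 to 45330137), had 40.0, 67.7, 112, 34.9 and 73.1 CPM in control and a lowest of 10.4, a median of 26.9 and a highest of 34.9 CPM with casein. The groups met at 34.9 CPM, where the highest casein steer equalled the lowest control steer to 3 digits. The log2 fold change was -1.44 ± 0.29, with an adjusted p of 0.554 in edgeR and 0.0122 in DESeq2. It was -1.36 with the follicle score as a covariate (edgeR adjusted p = 0.335).

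PGLYRP2 encodes a peptidoglycan recognition protein, an amidase that cleaves bacterial peptidoglycan (chromosome 7, 7683489 to 7688864). Its control values were 13.8, 2.65, 19.8, 2.93 and 12.4 CPM and its casein values had a lowest of 0.53, a median of 0.93 and a highest of 4.62 CPM. Casein replicate 3, the steer rich in follicle RNA, was the highest and overlapped control replicates 2 and 4. The log2 fold change was -2.70 ± 0.62 (adjusted p of 0.554 in edgeR and 0.0216 in DESeq2) and became -1.96 with the follicle score as a covariate.

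The other 2 lower genes were rare transcripts. TIGD3, derived from a transposase (chromosome 29, 43555590 to 43557005), had 52, 9, 116, 17 and 19 counts in control (2.61, 0.79, 9.10, 0.96 and 1.47 CPM) and 0, 0, 0, 5, 6 and 3 counts with casein, and its groups did not overlap. The log2 fold change of TIGD3 was -4.06 ± 0.96 (adjusted p of 0.554 in edgeR and 0.0122 in DESeq2). ENSBTAG00000039559, a protein-coding locus without a symbol (chromosome 4, 105721902 to 105722630), had 32, 11, 33, 2 and 10 counts in control and 1 count in the 6 casein steers together. The ratio of control to casein for ENSBTAG00000039559 was 96.8, with an exact interval from 16.9 to 3866 that covers counting error only. Its adjusted p was 0.554 in edgeR and 0.0122 in DESeq2.

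Among the 5 genes that DESeq2 called higher with casein, HTR6 and NKPD1 had the highest levels. HTR6, a serotonin receptor (chromosome 2, 133022950 to 133035378), had 1.40, 2.12, 1.41, 3.10 and 1.71 CPM in control and a lowest of 3.02, a median of 6.10 and a highest of 11.3 CPM with casein. Only the lowest casein steer overlapped the control range. The log2 fold change of HTR6 was 1.77 ± 0.42 (adjusted p of 0.554 in edgeR and 0.0361 in DESeq2).

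NKPD1, a protein with a KAP family P-loop domain (chromosome 18, 52806769 to 52817013), had 1.80, 0.35, 0.16, 0.90 and 1.32 CPM in control and a lowest of 2.0, a median of 4.30 and a highest of 7.48 CPM with casein. The groups did not overlap, the log2 fold change was 2.28 ± 0.59, and the adjusted p was 0.706 in edgeR and 0.0489 in DESeq2.

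CAVIN4, a caveolar protein of muscle (chromosome 8, 90334876 to 90348569), had 6, 1, 0, 0 and 0 counts in control and 8, 4, 56, 14, 33 and 7 counts with casein. Scaled to CPM, its casein values (0.44 to 3.31) did not overlap its control values (0 to 0.30). The log2 fold change of CAVIN4 was 3.83 ± 0.93 (adjusted p of 0.575 in edgeR and 0.0379 in DESeq2). RF02045, a short non-coding RNA named by its Rfam family (chromosome 8, 22039871 to 22039999), had 2, 2, 0, 3 and 0 counts in control and 8, 26, 11, 10, 5 and 9 counts with casein. The groups of RF02045 did not overlap as CPM either (log2 fold change 3.38 ± 0.79, adjusted p of 0.554 in edgeR and 0.0421 in DESeq2).

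PXT1, a gene known from testis (chromosome 23, 10341272 to 10360192), had 0 counts in the 5 control steers and 0, 18, 21, 5, 4 and 8 counts with casein. Its mean level of 0.79 ± 0.74 CPM with casein was at least 19.6-fold higher than the floor of 3 counts over the control group. The adjusted p of PXT1 was 0.554 in edgeR and 0.0122 in DESeq2. Casein replicate 1 had no count of PXT1, so the groups overlapped at 0.

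**Figure D2:**
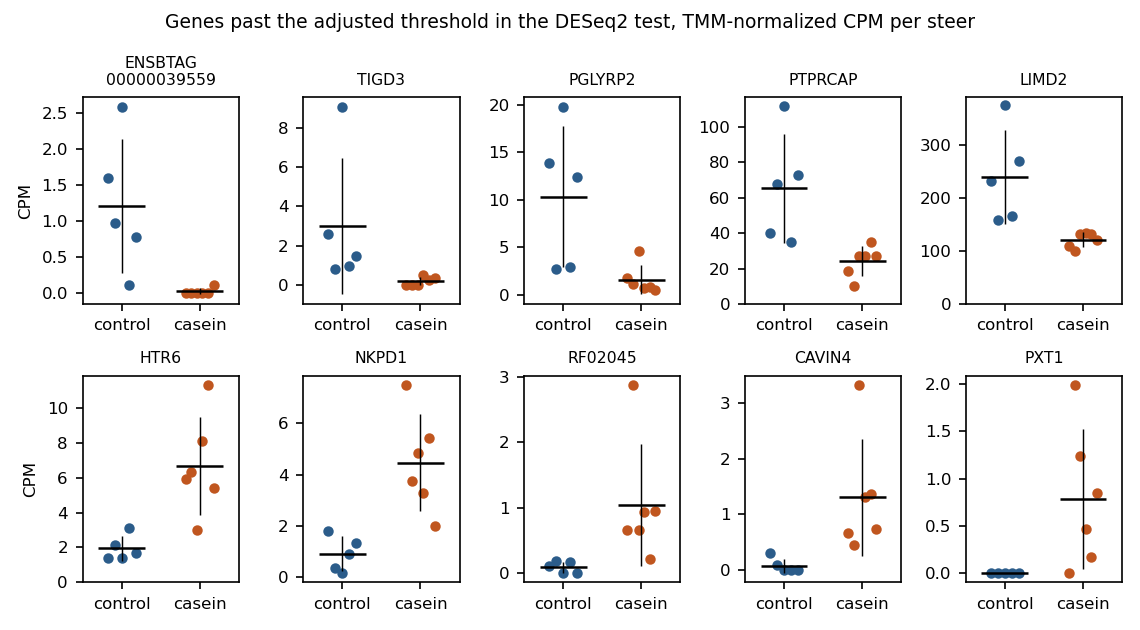
TMM-normalized CPM of each steer (y axis, linear) in control (n = 5, blue) and casein (n = 6, orange) for the 10 genes called by DESeq2, with lines at the mean and bars of ± 1 SD. LIMD2 lies between 100.4 and 134 CPM with casein and between 159 and 376 CPM in control, and PXT1 is at 0 in all 5 control steers.

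The 10 genes called by DESeq2 had edgeR adjusted p values from 0.554 to 0.706. Beyond these 10, the genes with the smallest p in edgeR had adjusted p values from 0.554 to 0.742 and are described by their values. Several of the lower ones have known functions in leukocytes and in immune signalling. NFKB2, a subunit of the noncanonical NF-κB pathway, had 83.5, 88.3, 169, 67.2 and 96.8 CPM in control and a lowest of 36.9, a median of 46.4 and a highest of 90.2 CPM with casein (log2 fold change -0.95 ± 0.24). SOCS1, an inhibitor of cytokine signalling through JAK kinases, had 11.7, 17.6, 14.4, 13.7 and 20.4 CPM in control against 5.08 to 11.5 CPM with casein, and the groups did not overlap (-0.96 ± 0.25).

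HSH2D, an adaptor protein of haematopoietic cells, had 54.2 ± 11.9 CPM in control and 27.4 ± 10.8 with casein (-0.98 ± 0.24). CNN2, a calponin that binds actin, had 228, 195, 505, 202 and 275 CPM in control and 130.4 to 180 CPM with casein, without overlap (-0.91 ± 0.22). MRPS18B, a protein of the small mitochondrial ribosomal subunit, had 16.7 ± 4.26 and 8.74 ± 2.35 CPM, again without overlap (-0.94 ± 0.23).

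With the follicle score as a covariate these 5 lower genes kept negative log2 fold changes, from -0.63 for CNN2 to -1.04 for MRPS18B.

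On the higher side, CDK3, a cyclin-dependent kinase, had 9.27, 10.7, 7.92, 10.6 and 13.9 CPM in control and a lowest of 17.5, a median of 25 and a highest of 32.9 CPM with casein. The groups of CDK3 did not overlap (log2 fold change 1.29 ± 0.34). SLC18B1, a vesicular polyamine transporter, had 16.1 ± 2.55 CPM in control and 33.3 ± 9.83 with casein (1.04 ± 0.26), with 1 casein steer at 17.7 CPM inside the control range of 13.0 to 19.3. ZKSCAN5, a zinc finger factor, had 22.8 ± 7.77 and 43.7 ± 6.68 CPM (0.94 ± 0.25), and TAF1A, a subunit of the RNA polymerase I factor SL1, had 10.7 ± 2.61 and 19.2 ± 6.14 CPM (0.84 ± 0.23).

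CAPN8, a calpain of gastrointestinal mucus cells, spread widely with casein, from 8.88 to 86.7 CPM, against 5.90 to 13.2 CPM in control (1.84 ± 0.50). MAMSTR, a coactivator of the muscle factor MEF2, had 5, 1, 0, 1 and 0 counts in control and 50, 15, 15, 5, 5 and 5 with casein (3.81 ± 1.03).

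Ranges of casein and control did not overlap for 46 of 15086 genes (0.305%). Casein steers had the higher level in 29 (0.192%) and the lower in 17 (0.113%). If labels were shuffled over all splits of the 11 steers, a gene without ties would separate in a given direction with probability 0.00216. Neither share exceeded that probability, so non-overlap was no more frequent than shuffled labels would give on average. Of the 46 genes, 42 passed the unadjusted threshold, which is not separate evidence because both rest on the same values. Beside those described, the lower non-overlapping genes with smallest p included VASP and ARF6. VASP promotes actin filament growth (202 ± 34.5 CPM with casein, 311 ± 77.8 in control). ARF6 is a small GTPase of membrane traffic (90.3 ± 7.92 and 118 ± 13.0 CPM). RNF6, a ubiquitin ligase, had 16.2 ± 0.37 CPM in control against 11.2 ± 1.10 with casein. ENSBTAG00000053373 had 0 counts in the 6 casein steers and 0.38 ± 0.34 CPM in control, at least 10.4-fold above the floor of 3 counts over the casein group. These genes were singled out after their values were seen.

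The non-overlapping higher genes included PALB2, the partner of BRCA2 in DNA repair (24.5 ± 7.62 CPM with casein, 13.7 ± 2.51 in control). Also among them were ABCC5, an exporter of cyclic nucleotides (40.3 ± 10.2 and 19.3 ± 6.21), the cyclin CCNL2 (129 ± 16.7 and 89.3 ± 10.7) and CEP192, a centrosome protein (34.2 ± 7.22 and 22.5 ± 2.61). The median gene length was 2851 bases among the 29 higher genes and 1416 bases among the 17 lower ones.

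Transcripts for starch assimilation did not differ beyond the spread between steers. MGAM had 123, 1104, 102, 793 and 34.0 CPM in control and a lowest of 72.3, a median of 467 and a highest of 1370.5 CPM with casein, so that each group spanned more than the distance between their means. Its log2 fold change was 0.28 ± 0.73 (95% interval -1.23 to 1.78). SI had 638, 733, 222, 856 and 230.0 CPM in control and a lowest of 178, a median of 626 and a highest of 1888 CPM with casein (0.44 ± 0.47, interval -0.53 to 1.41). TREH, the brush border trehalase, had 153 ± 67.6 CPM in control and 127 ± 69.4 with casein (-0.27 ± 0.40, interval -1.09 to 0.55).

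The hexose transporters spread as widely. SLC5A1 had 353, 1014, 166, 751 and 60.6 CPM in control and a lowest of 79.9, a median of 315 and a highest of 953 CPM with casein (-0.29 ± 0.61, interval -1.54 to 0.97). SLC2A2 ran from 2.79 to 121 CPM in control and from 8.72 to 255 CPM with casein (0.61 ± 0.76). In MGAM, SI, SLC5A1 and SLC2A2 alike, casein replicate 6 was the highest casein steer.

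The fructose transporter name SLC2A5 is given to 2 genes in the deposited tables, ENSBTAG00000007302 on chromosome 14 (9.26 ± 3.63 CPM in control, 14.8 ± 6.61 with casein) and ENSBTAG00000034323 on chromosome 16 (7.79 ± 10.1 and 4.92 ± 7.85), with log2 fold changes of 0.67 ± 0.66 and -0.66 ± 1.30. Unadjusted p for these 7 carbohydrase and hexose transporter genes ran from 0.320 to 0.705 in edgeR. The signs of SI, MGAM, SLC5A1, SLC2A2 and the chromosome 16 SLC2A5 turned under other settings, including, for MGAM, SI and SLC2A2, the follicle score as a covariate and the omission of casein replicate 6.

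**Figure D3:**
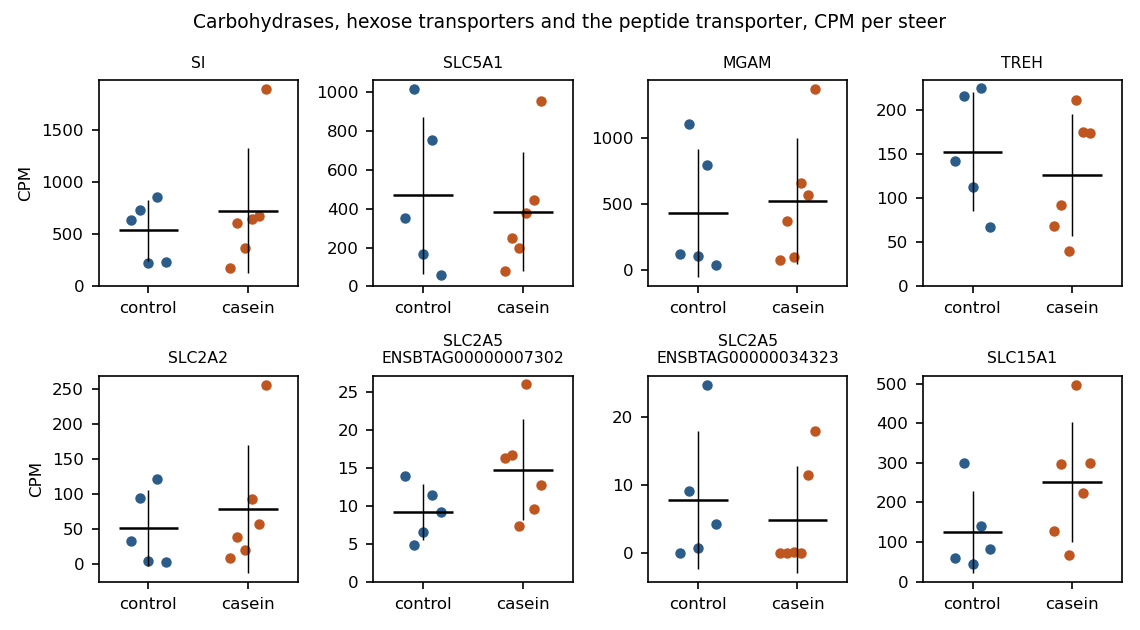
TMM-normalized CPM per steer (y axis, linear) for 7 carbohydrase and hexose transporter genes and the peptide transporter SLC15A1 in control (n = 5, blue) and casein (n = 6, orange), with lines at the mean and bars of ± 1 SD. The groups overlap in every panel, and MGAM alone runs from 34.0 to 1104 CPM among the control steers.

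Genes for protein digestion and amino acid uptake were examined next, as the infusate delivered protein. SLC15A1 had 60.9, 299, 43.7, 139.6 and 83.5 CPM in control and a lowest of 68.5, a median of 260.2 and a highest of 496 CPM with casein. Of the casein steers, 4 were above 4 of the 5 control steers, but the groups overlapped (1.01 ± 0.65, interval -0.35 to 2.36, edgeR adjusted p = 0.935). Of 21 peptide and amino acid transporters 14 had positive and 7 negative log2 fold changes, with a median of 0.19 against 0.01 over all genes, and 0 passed the unadjusted threshold.

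Among 17 brush border and cytosolic peptidases 9 were positive and 8 negative (median 0.09), and 0 passed without adjustment. MME, a brush border endopeptidase, had 133 ± 47.8 CPM in control and 217 ± 123 with casein (0.70 ± 0.41), and DPEP1, a dipeptidase, had 39.7 ± 17.6 and 24.9 ± 21.6 CPM (-0.67 ± 0.50).

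The amino acid response through ATF4 raises its target genes when amino acids are short. Of 27 such targets 18 had negative log2 fold changes (median -0.11). DDIT4, TRIB3 and SHMT2 had an unadjusted p of at most 0.05, all lower with casein. That was 3 of 27, against 2.76% of all genes lower and 5.66% in both directions. DDIT4, an inhibitor of mTORC1, had 75.7, 199, 94.1, 81.4 and 55.4 CPM in control and a lowest of 29.5, a median of 53.5 and a highest of 99.7 CPM with casein (-0.80 ± 0.33). TRIB3, a pseudokinase that restrains ATF4, had 10.6 ± 2.69 CPM in control and 6.66 ± 1.99 with casein (-0.67 ± 0.28). The groups overlapped for both genes, and their adjusted p was 0.840.

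Enzymes of glutamine, arginine, the urea cycle and amino acid breakdown were balanced, with 12 positive and 15 negative of 27 (median -0.02) and 0 past the unadjusted threshold. CPS1, which fixes ammonia in the first step of citrulline synthesis, had 736, 553, 245, 1120.0 and 822 CPM in control and a lowest of 598, a median of 1167 and a highest of 1290 CPM with casein. Its log2 fold change was 0.60 ± 0.30 (interval -0.01 to 1.21). BCKDHA, a subunit of the branched-chain keto acid dehydrogenase, had 28.1 ± 9.13 and 20.3 ± 6.07 CPM (-0.46 ± 0.25). Of 14 receptors and sensors of amino acids and peptides, 0 passed without adjustment (median -0.14).

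Epithelial lists showed few single genes past the unadjusted threshold, which 2.9% of all genes passed with a higher level and 2.76% with a lower one. Of 20 villus enterocyte genes 16 were negative (median -0.28), and 1 of them passed, PLIN2, which coats lipid droplets (56.7 ± 11.9 CPM in control, 42.1 ± 12.4 with casein, -0.43 ± 0.20). APOA4, an apolipoprotein of chylomicrons, ranged from 46.6 to 3530 CPM in control and from 29.7 to 884 with casein (-1.48 ± 0.82). Enterocyte transcription factors were positive in 15 of 17 with a median of 0.17 and 0 past the threshold. KLF4, a factor of differentiated epithelium, had 71.7 ± 72.7 CPM in control and 37.0 ± 20.2 with casein (-0.95 ± 0.53), against the direction of most of that list.

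Cell cycle genes were negative in 23 of 30 (median -0.28), again with 0 past the threshold, as in the replication helicase gene MCM7 (140.4 ± 87.2 CPM in control, 85.1 ± 43.2 with casein). Stem cell and Wnt genes were balanced (9 of 18 in each direction). Of 18 genes of the GLP-2 receptor and its growth mediators 0 passed, with IGF1, a growth factor of the intestinal stroma, at 1.87 ± 0.83 CPM in control and 3.43 ± 2.24 with casein (0.88 ± 0.43). Among 11 goblet and secretory lineage genes 1 passed without adjustment, higher with casein, against 2.9% of all genes higher. It was TRPM5, a cation channel of tuft cells, with 2.00, 1.41, 1.65, 1.01 and 3.34 CPM in control. With casein TRPM5 had a lowest of 2.76, a median of 4.17 and a highest of 11.5 CPM (1.59 ± 0.63). Enteroendocrine genes were positive in 8 of 15 and negative in 7 (median 0.08), and 0 passed. Their most negative member, motilin (MLN), had 2.64 ± 0.40 CPM in control and 0.94 ± 1.15 with casein (-1.51 ± 0.83).

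Lymphoid and interferon lists held mostly negative log2 fold changes. In the B cell follicle list 21 of 22 genes were negative (median -0.91). CD79A, SPIB and VPREB3 passed without adjustment, all lower (3 of 22, against 2.76% of all genes lower and 5.66% in both directions). CD79A, a signalling chain of the B cell receptor, had 98.0, 4.94, 215, 18.3 and 154 CPM in control and a lowest of 6.11, a median of 12 and a highest of 108 CPM with casein (-1.77 ± 0.74, edgeR adjusted p = 0.840). High values came from control replicates 1, 3 and 5 and casein replicate 3, and control replicate 2 was the lowest of all 11 steers. SPIB, a transcription factor of B cells and of M cells, had 233 ± 188 CPM in control and 115 ± 78.0 with casein (-1.02 ± 0.43).

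Lymphoid chemokines and receptors were negative in 12 of 15 (median -0.77), with 0 past the unadjusted threshold. Their follicle-organizing member LTB had 101 ± 108 CPM in control and 38.1 ± 43.7 with casein (-1.40 ± 0.68). T cell and intraepithelial lymphocyte genes were negative in 27 of 30 (median -0.38). LIMD2, PTPRCAP and LCK passed without adjustment, all lower (3 of 30, against 2.76% of all genes lower and 5.66% in both directions). The first 2 of these were put in the list with their earlier result known. Apart from LIMD2, 0 members of the T cell list had groups that did not overlap. Mean log2 CPM over the T cell list ran from 4.51 to 5.57 with casein and from 5.03 to 6.10 in control.

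Macrophage and dendritic cell genes were negative in 13 of 19 (median -0.20) and plasma cell genes in 8 of 12 (median -0.19), with 0 past the threshold in both lists. CSF1R, the receptor that macrophages need to survive, had 133 ± 30.3 CPM in control and 93.7 ± 35.8 with casein (-0.50 ± 0.28). Of 8 mast cell and eosinophil genes 5 were positive and 3 negative (median 0.25). HDC and GATA2 passed without adjustment, both higher with casein (2 of 8, against 2.9% of all genes higher and 5.66% in both directions). HDC, which makes histamine, had 1.6, 1.76, 1.02, 2.36 and 0 CPM in control and a lowest of 0.95, a median of 5.79 and a highest of 6.40 CPM with casein (1.73 ± 0.67, edgeR adjusted p = 0.826). GATA2, a factor of mast cells and their precursors, had 4.86 ± 2.11 and 11 ± 4.97 CPM (1.18 ± 0.51).

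Genes stimulated by type I interferon were negative in 24 of 28 (median -0.30). DHX58 and ISG15 had an unadjusted p of at most 0.05, both lower (2 of 28, against 2.76% of all genes lower and 5.66% in both directions). DHX58, a helicase that senses viral RNA, had 29.5, 55.8, 48.8, 29.2 and 25.6 CPM in control and a lowest of 18.9, a median of 24.0 and a highest of 27.9 CPM with casein (-0.69 ± 0.23). ISG15, a ubiquitin-like modifier, had 111, 231, 64.0, 126 and 31.9 CPM in control and 25 to 76.1 CPM with casein (-1.13 ± 0.41). Groups overlapped for both. Of 26 genes of antigen presentation and interferon gamma 16 were negative (median -0.07), and only the rare class II gene BOLA-DYB passed without adjustment (1.35 ± 1.57 CPM in control, 0.06 ± 0.10 with casein). Epithelial defence genes were positive in 10 of 18 (median 0.24), and 1 of them passed, in the other direction. This was CCL20, the chemokine that draws CCR6-bearing lymphocytes, with 61.8, 16.2, 60.8, 14.1 and 8.14 CPM in control and a lowest of 2.74, a median of 3.88 and a highest of 44.9 CPM with casein (-1.47 ± 0.70).

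Markers of other tissues that a scraping can hold were set beside these values. Smooth muscle genes were negative in 14 of 17 (median -0.51), stroma and collagen genes in 11 of 22 (median 0.05) and enteric nerve and glia genes in 5 of 7 (median -0.26), with 0 past the unadjusted threshold. The mean log2 CPM of smooth muscle genes ran from 2.90 to 5.51 with casein and from 2.20 to 6.30 in control, so its mean was higher with casein although its median log2 fold change was negative. No blood marker passed the filter on low counts. Ileal bile acid genes were positive in 4 of 7 (median 0.13). Of the 7, 1 passed without adjustment, with a lower level in casein steers, against 2.76% of all genes lower. That gene, FABP6, which binds bile acids in enterocytes, had 110.3, 0.79, 221, 18.4 and 13.3 CPM in control and 0.32 to 53.5 CPM with casein (-2.31 ± 1.10).

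PRSS2, a pancreatic trypsinogen, had 999, 0, 428, 1, 0 and 0 counts in the casein steers and 1 count in the control steers together. Its ratio of casein to control was 1298, with an exact interval from 233 to 51316 for counting error only, and it rested on casein replicates 1 and 3. The part of the pancreatic, ileal and nerve markers in the results above was not tested. With the smooth muscle score as a covariate LIMD2 had a log2 fold change of -0.97 and CNN2 of -0.89.

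Cytosolic ribosomal protein genes were negative in 67 of 78 with a small median of -0.16, and RPL8 passed without adjustment (1705 ± 876 CPM in control, 1081 ± 333 with casein, -0.66 ± 0.31). Oxidative phosphorylation genes were positive in 24 of 31 with a median of 0.09 and 0 past the threshold. Cholesterol and fat handling genes (14 positive and 18 negative of 32) and metal ion and stress genes (10 and 16 of 26) had 0 past it as well. PDK4, a kinase that turns off pyruvate dehydrogenase, had 21.8 ± 9.85 CPM in control and 37.3 ± 13.4 with casein (0.77 ± 0.38). Over all lists 20 of 640 genes (3.12%) passed without adjustment, 4 higher and 16 lower, which is a smaller share than the 5.66% of all genes.

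**Figure D4:**
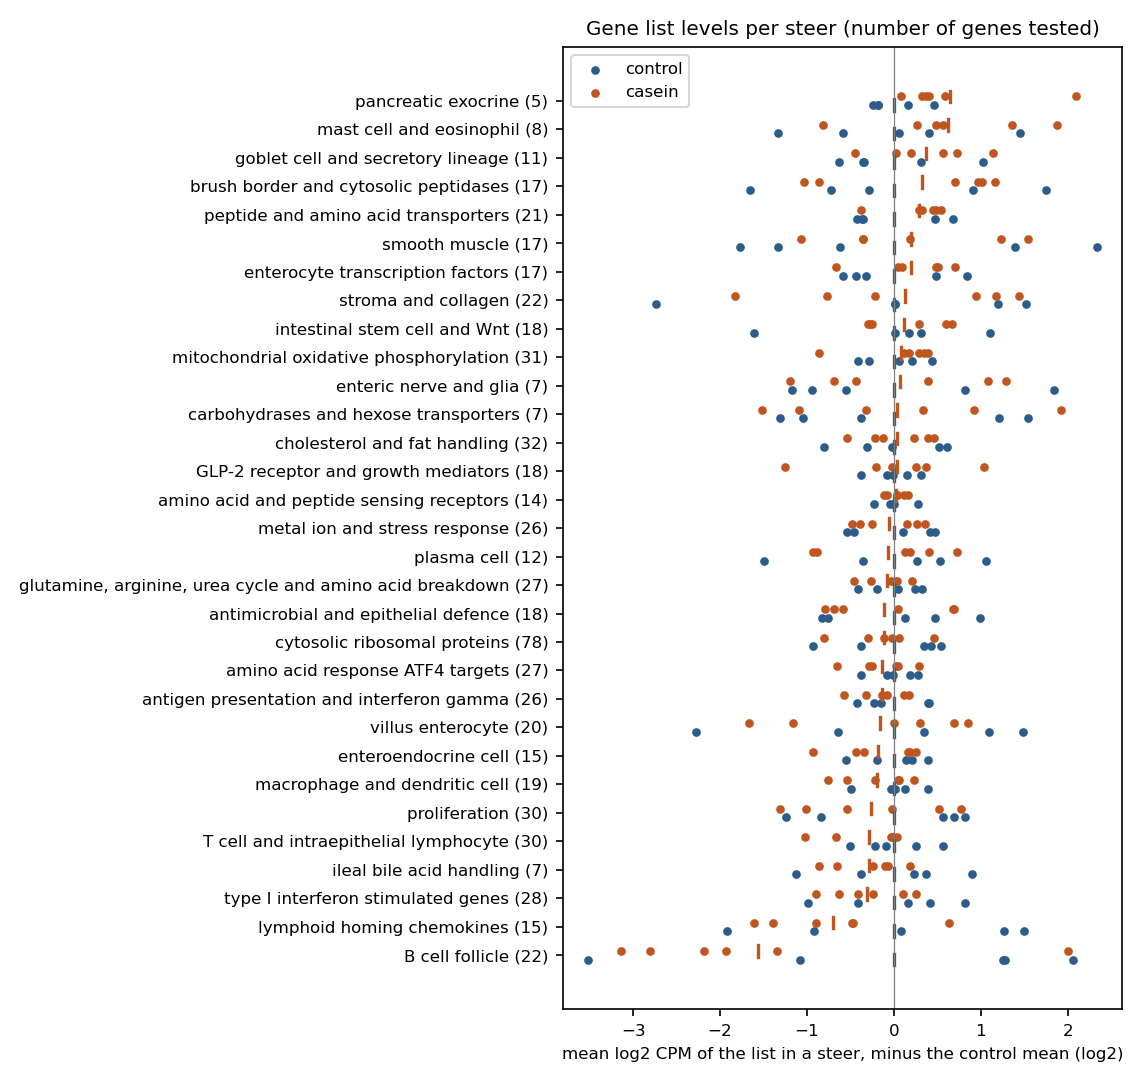
Mean log2 CPM of each gene list in each steer, minus the mean of the control steers (x axis, log2), for control (n = 5, blue) and casein (n = 6, orange), with a short line at each group's mean and the number of genes tested in brackets. The groups overlap for all 31 lists, and the B cell follicle list has the widest spread, from 0.93 to 6.50 in control before centring.

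The study names 7 genes as lower with casein, from a comparison that pooled these animals with GLP-2 steers. Their direction here is therefore not independent evidence. The study first compared the treatments in pairs, and reports no pathway or ontology enrichment for casein against control. ENSBTAG00000047783 (chromosome 2, 81258751 to 81259773) had 3, 70, 1, 70 and 18 counts in control (0.15, 6.18, 0.08, 3.94 and 1.40 CPM) and 1 to 11 counts with casein (0.08 to 0.46 CPM). Its high values were those of control replicates 2, 4 and 5, with a log2 fold change of -3.15 ± 0.90 (edgeR adjusted p = 0.778). ENSBTAG00000047029 (chromosome 11, 47179770 to 47180201) had 57.8, 29.6, 54.0, 27.8 and 57.4 CPM in control and a lowest of 19.5, a median of 26.1 and a highest of 38.6 CPM with casein (-0.75 ± 0.28, edgeR adjusted p = 0.820).

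CCR7, the homing receptor of naive lymphocytes, had 13.8, 3.71, 53.0, 9.06 and 62.8 CPM in control and a lowest of 1.10, a median of 2.72 and a highest of 56.6 CPM with casein (-1.25 ± 0.82). SFRP5, a secreted Wnt inhibitor, had 40.3, 0.18, 136, 4.84 and 20.7 CPM in control and 0.28 to 52.9 CPM with casein (-1.97 ± 1.16). FCER2, the low-affinity IgE receptor CD23 of B cells, had 14.7, 0.18, 58.6, 6.30 and 24.7 CPM in control and 0.33 to 69.7 CPM with casein (-0.72 ± 1.11). In CCR7, SFRP5 and FCER2 the highest casein steer was replicate 3, the one with the most follicle RNA, and with the follicle score as a covariate CCR7 moved to -0.68, SFRP5 to -0.11 and FCER2 to 0.20. FCER2 is itself a member of the follicle list, so part of its move follows from the adjustment itself. Without casein replicate 3 the log2 fold changes were -3.27 for CCR7, -4.59 for SFRP5 and -4.06 for FCER2. They were -0.74 for CCR7 without control replicate 5, and -0.69 for SFRP5 and 0.15 for FCER2 without control replicate 3.

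ENSBTAG00000040367 and C1QTNF2, a secreted protein of the C1q family, did not pass the filterByExpr step and were compared by a 2-sided exact permutation test over all splits of the 11 steers. ENSBTAG00000040367 had 1465, 0, 7, 13 and 9 counts in control and 1 to 10 counts with casein (exact p = 0.234), so its high group mean was that of control replicate 1. C1QTNF2 had 11, 0, 16, 1 and 54 counts in control and 2 counts in the casein steers together, a ratio of 45.1 with an exact interval from 12.1 to 379 for counting error (exact p = 0.0281 over steers).

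The same infusion was compared in steers injected with GLP-2 (casein + GLP-2, n = 6, against GLP-2, n = 5), which shares no animal with the comparison above. There, 0 of 15086 genes (0%) passed the adjusted threshold and 398 (2.64%) the unadjusted one. Of the 854 genes with an unadjusted p of at most 0.05 without GLP-2, 456 (53.4%) had the same sign with GLP-2, against 51.8% of all genes tested. Of them, 9 (1.05%) had an unadjusted p of at most 0.05 and the same sign in both. The 2.64% of all genes past that threshold with GLP-2 counts both directions, so it is not a like measure for this share.

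These 9 were LIMD2, ENSBTAG00000047783, ENSBTAG00000047029, ENSBTAG00000051402 and CDC37, lower with casein, and CPLANE1, PRKDC, env and ENSBTAG00000047341, higher. LIMD2 had a log2 fold change of -0.46 ± 0.22 with GLP-2, and the difference between its contrasts was 0.52 ± 0.31. ENSBTAG00000047783 had -4.71 ± 0.98 and ENSBTAG00000047029 -1.57 ± 0.28 on the log2 scale with GLP-2. The study named both from a comparison that included GLP-2 steers, so neither is independent evidence. The gene env was near the floor without GLP-2 (0.099 ± 0.20 CPM with casein, 0 in control). CDC37, a cochaperone that delivers kinases to HSP90, had -0.38 ± 0.16 without and -0.35 ± 0.16 with GLP-2. PRKDC, the DNA-dependent protein kinase, had 0.38 ± 0.17 and 0.34 ± 0.16, and CPLANE1, a ciliogenesis protein, had 0.71 ± 0.30 and 0.75 ± 0.30. Apart from LIMD2, ENSBTAG00000047783 and ENSBTAG00000047029, these genes were singled out after their values were seen.

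The difference between the contrasts, tested as the casein by GLP-2 interaction, passed the adjusted threshold in 0 of 15086 genes (0%) and the unadjusted one in 645 (4.28%). Of the 22 genes with the strongest evidence without GLP-2 (10 by DESeq2 and 12 by smallest p), 20 had an unadjusted interaction p of at most 0.05. The choice of the 22 rests on the contrast that enters this difference, so no test of it is independent.

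PTPRCAP had a log2 fold change of -0.11 ± 0.29 with GLP-2, PGLYRP2 0.59 ± 0.62 and NKPD1 -0.98 ± 0.56. All 3 were among those 20 genes, and their adjusted interaction p was 0.996 in edgeR. Among the nutrient genes SLC15A1 went from 1.01 ± 0.65 without GLP-2 to -1.73 ± 0.65 with it and MME from 0.70 ± 0.41 to -0.99 ± 0.41, and for both the edgeR interaction had an unadjusted p under 0.05 and an adjusted p of 0.996. Type I interferon genes, of which 24 of 28 were negative without GLP-2, were positive in 26 of 28 with it (median 0.37), and T cell genes were positive in 22 of 30 (median 0.28). B cell follicle genes, negative in 21 of 22 without GLP-2, were positive in 14 of 22 with it (median 0.11). Villus enterocyte genes went from 16 of 20 negative to 19 of 20 positive (median 0.33). Oxidative phosphorylation genes went from 24 of 31 positive to 29 of 31 negative (median -0.24). Some other lists were mostly negative in both contrasts. Among them were cell cycle genes (23 of 30 without and 28 of 30 with GLP-2) and cytosolic ribosomal proteins (67 and 77 of 78). Smooth muscle (14 and 17 of 17) and lymphoid chemokines (12 and 10 of 15) were others. The difference between the contrasts was not tested for any list.

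**Figure D5:**
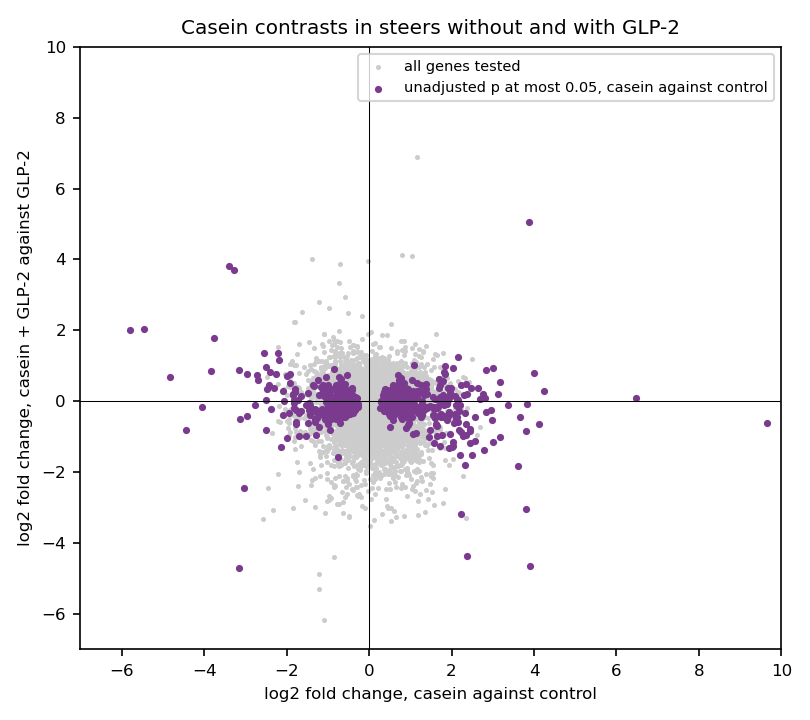
Log2 fold change of casein against control (x axis) and of casein + GLP-2 against GLP-2 (y axis) for 15086 genes (grey), with the 854 genes at an unadjusted p of at most 0.05 without GLP-2 in purple, and 1 gene outside the plotted range. The purple points lie on both sides of 0 on the y axis, with 456 of 854 on the same side as on the x axis.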

How the data were processed

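The authors filtered reads with fastp, aligned them to ARS-UCD1.2 with HISAT2 2.0.5, ran StringTie 1.3.3b and counted reads per gene with featureCounts 1.5.0-p3. The deposited counts are whole numbers without normalization, and the deposited FPKM, scaled by the authors for gene length and library size, served only as an alternative. Libraries were strand-specific and poly-A selected. The strand setting of the counting is not given in the sources used here.

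In R 4.3.3, counts of 27570 genes were filtered by filterByExpr (minimum count 10), normalized by TMM and fitted in edgeR 4.0.16 for the 4 treatments of all 22 steers without a covariate. The authors used DESeq2 1.20 with Wald tests, and its model formula is not given in the sources used here. The contrast casein minus control was tested by quasi-likelihood with Benjamini-Hochberg adjustment at 0.05. Log2 CPM used a prior count of 2. Alternatives included DESeq2 1.42.0, limma 3.58.1 on log2(FPKM + 1) or log2(FPKM + 0.1), other filters, covariates, the replicate block and the omission of each steer. Scripts were tested on simulated data. Intervals and floors of low counts cover counting error only.

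Named genes were those called by edgeR (0) or DESeq2, the 10 higher and 10 lower genes with a symbol and the smallest p, the 7 genes of the study, all carbohydrases and hexose transporters, and the 2 members of each other list with the smallest p. Other genes are named where the text says so. The result of 1 gene that this rule selects is not reported here. The contrast, the 32 lists (691 of 722 symbols matched) and the genes named were chosen with earlier results of these data known. Lists are described by counts and medians without a test.

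Block numbers in the labels mark groups of body weight. After removal of group means, steers of a block had correlations of 0.032, 0.073, 0.317, 0.387 and 0.154 (mean 0.193), against a mean of -0.038 in 25 other pairs. Steers of a group were separate animals, and 0 pairs of libraries were identical.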

Additional observations from a re-analysis of the deposited data

Results flagged for a closer look

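Among 246 groups of values examined by Dixon's test at the 95% level, 10 held a single far-off steer, where chance flags about 1 in 20. Casein replicate 3 was the lowest casein steer for MRPS18B (2.19 log2 CPM) and the highest for FCER2 (6.13 log2 CPM), the highest for the B cell follicle list (mean log2 CPM 6.45) and the lowest for oxidative phosphorylation (7.11). Casein replicate 1 was the lowest casein steer for peptide and amino acid transporters (mean log2 CPM 3.79) and the highest for pancreatic exocrine genes (2.33). Control replicate 5 was the lowest control steer for RRAGC (4.72 log2 CPM), a GTPase of amino acid sensing, and for HDC (-2.83 log2 CPM). Control replicate 1 was the highest for BCAS1 (3.65 log2 CPM), and control replicate 2 the lowest for PSMB10 (7.66 log2 CPM), a subunit of the immunoproteasome.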

How the results depend on the processing

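The count of genes past the adjusted threshold was 0 under each edgeR and limma alternative, and 10 with the DESeq2 Wald test. With DESeq2 it was also 5 for casein + GLP-2 against GLP-2 and 2 for the interaction, against 0 in edgeR. The number at an unadjusted p of at most 0.05 moved from 854 to 1877 without a filter, 379 with only the casein and control steers, 392 with those steers and the replicate block (242 higher and 150 lower), and 1761 with the follicle score as a covariate. The replicate block on all 22 steers gave 737, and changed no call. The smooth muscle score as a covariate gave 1235, 733 higher and 502 lower. When each steer was left out, this number ran from 553 (without control replicate 3) to 1464 (without casein replicate 3, with 582 higher, 882 lower and a smallest adjusted p of 0.0506), with 1455 without control replicate 2. Genes without overlap ran from 64 to 155, against 46 with all steers, as fewer steers overlap less. The highest number was without casein replicate 3, against 69 to 84 without any other casein steer. The cause of that difference was not tested. A gene length correction, chosen after seeing the data, gave 331 higher and 545 lower.

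Signs turned for 13 of 94 named genes, which had no call. With the follicle score as a covariate the log2 fold change was 0.20 for FCER2 (itself in the follicle list), -0.078 for SI, -0.42 for MGAM, -0.16 for SLC2A2, 1.12 for PCSK1N, 0.037 for MCM7, 0.92 for LCN2, 1.01 for DERL3, 1.04 for THY1 and 0.26 for RET. With the replicate block on 11 steers it was -0.044 for SI and 0.30 for PCSK1N. It was 0.26 for SLC5A1 with the smooth muscle score and 0.087 for PCSK1N with limma on log2(FPKM + 0.1). The cause was not tested. When each steer was left out, the log2 fold change ran from -4.06 to 0.15 for FCER2, -0.12 to 0.64 for SI, -0.79 to 0.19 for SLC5A1, -0.29 to 0.97 for MGAM, -0.24 to 1.18 for SLC2A2, -1.66 to 0.44 for the chromosome 16 SLC2A5 and -0.40 to 1.93 for FGF19. The median half-width of 0.68 limits what these 11 steers can show.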
